A study of Mus musculus with 4 samples.

Results

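Crypt stem cell genes and Wnt feedback genes were examined in mouse small intestinal (SI) organoids transduced with a miR-181a-5p mimic or with its control. The set was given as 10 symbols (Lgr5, Lgr4, Ascl2, Olfm4, Smoc2, Axin2, Rnf43, Znrf3, Troy and Tnfrsf19). Troy is an older name of Tnfrsf19, so the symbols stand for 9 of the 55487 genes listed. The genes were selected on their measured values in this same comparison, since Lgr5 was seen to be lower with the mimic and Olfm4 was not, so their differences are given below as descriptions and carry no p.

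SI organoids are epithelial cultures grown from isolated crypts in Matrigel. All 4 cultures were transduced with lentivirus and kept in puromycin at 2 μg/ml, so the controls carry a vector and its selection too. The virus encoded miRNA mimic control in 2 libraries (replicates 1 and 2) and miR-181a-5p mimic in 2 libraries (replicates 3 and 4). The sources used here give neither the age or strain of the crypt donors of these libraries, nor whether replicates were transduced separately, so the spread between replicates may be technical. The libraries held 31104884 to 38111731 expected counts, RSEM's estimate of the reads from each gene. Epithelial markers were abundant in all of them, with Epcam at 615 to 713 TPM (a share of all transcripts, scaled for transcript length). Of 11 mesenchymal markers, 5 (Col1a2, Col3a1, Dcn, Lum and Foxl1) were at 0 counts in every library, and the summed level of all 11 was 0.53 to 0.72 TPM in the controls and 0.53 to 0.63 TPM with the mimic.

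In the crypt, Wnt ligands bind Frizzled receptors together with Lrp5 or Lrp6, and β-catenin then enters the nucleus and activates transcription with TCF factors. The ligases Rnf43 and Znrf3 remove Frizzled from the cell surface, and R-spondins bound to Lgr4 or Lgr5 hold these ligases back. Lgr5, Rnf43, Znrf3, Axin2 and Ascl2 are themselves switched on by Wnt, which makes several of them feedback regulators, and Lgr5, Ascl2, Olfm4 and Smoc2 are widely used marks of the stem cells at the crypt base.

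A mimic adds mature miRNA to the cell, where the seed (bases 2 to 8) pairs with mRNAs and represses them. The 4 mature miR-181-5p family members, as listed by RefSeq for GRCm38.p6, are shown because they share 1 seed. They are written 5′ to 3′ with the seed in capitals.
miR-181a-5p: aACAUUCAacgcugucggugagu
miR-181b-5p: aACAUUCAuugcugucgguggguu
miR-181c-5p: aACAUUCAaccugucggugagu
miR-181d-5p: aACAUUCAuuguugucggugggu
The DNA letters that pair with this seed are TGAATGT (7mer-m8), TGAATGTA (8mer) and, with base 8 unpaired, GAATGTA (7mer-A1). They were sought on the transcript strand in the longest annotated 3′ UTR and the longest coding sequence of each gene (GENCODE release 21 for mouse, GRCm38).

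Lgr5 had no such match in its 3′ UTR of 1703 bases or its coding sequence of 2724 bases. Of the 9 genes, Tnfrsf19 alone held any in the 3′ UTR, and none held any in the coding sequence. Among all tested genes, 23.4% of 12840 3′ UTRs and 16.5% of 13031 coding sequences held at least 1 of these matches. The shorter 6-base match GAATGT was in the 3′ UTR of 3 of the 9 genes (Smoc2, Znrf3 and Tnfrsf19) against 36.1% of all, and Lgr5 and Olfm4 each held 1 in the coding sequence, as Tnfrsf19 held 2. No match says only that these letters are not in the windows searched.
The 3 matches of Tnfrsf19, all of the 7mer-m8 kind, lie in the 3′ UTR part of exon 10 of 10 on the minus strand of chromosome 14, in GRCm38 windows of 29 bases. They are shown because no other gene of the set has a match, and the capitals mark the 7 paired letters.
chr14:60966104-60966132: tatgtccacggTGAATGTggtttcacaag
chr14:60965785-60965813: gaaagtggcggTGAATGTggttaagaatt
chr14:60965678-60965706: aagcctggctgTGAATGTtaggactggtg

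Lgr5 stood apart from the other 8 genes in the size of its difference between mimic and control. It was 2.60-fold lower with the mimic, while of the other crypt base markers Ascl2 had a log2 fold change of -0.49, Olfm4 of 0.22 and Smoc2 of 0.48. The R-spondin receptor Lgr4 differed by 1.09-fold. Among all 17155 genes tested, 1.47% were lower and 0.589% higher past both thresholds (an adjusted p of 0.05 and a fold change of 2). All 9 genes passed edgeR's filter on low counts and were in the test. Since Lgr5 was picked for this difference, no call is given for it or for the other 8, and nothing is read from its size. In bulk RNA, fewer stem cells and less Lgr5 RNA per stem cell cannot be told apart.

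**Figure D1:**
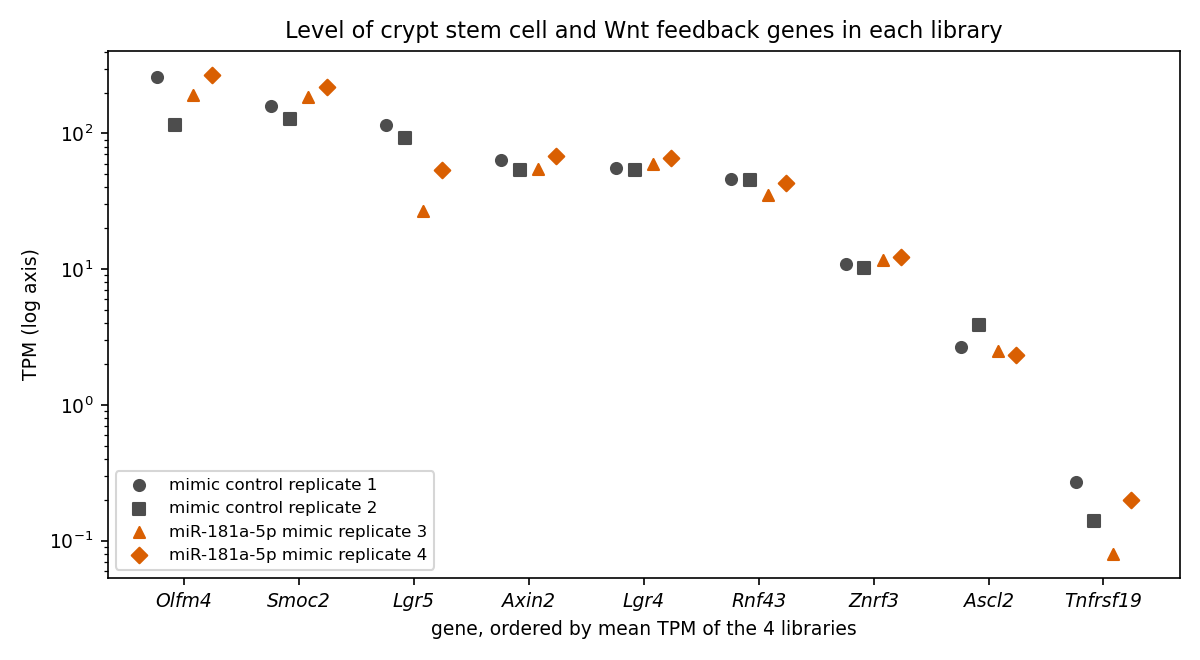
Level of each gene in TPM (log axis) in the 4 libraries, with genes ordered by their mean over all libraries, grey symbols for the mimic control and orange for the miR-181a-5p mimic. Lgr5 lies at 92.7 and 115 TPM in the controls and at 26.9 and 54.1 TPM with the mimic, whereas the lowest Olfm4 value is in a control library.

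Lgr5 encodes a receptor for R-spondins and lies on the minus strand of chromosome 10 from 115450311 to 115587780 (GRCm38). It had 401 and 312 normalized CPM (counts scaled to library totals that TMM corrects for composition) in control replicates 1 and 2. It had 98.0 and 176 normalized CPM in mimic replicates 3 and 4. Both mimic libraries lay below both controls, and the lowest control was still 1.77 times the highest mimic library. The group means were 357 ± 63.3 and 137 ± 55.2 normalized CPM (SD, n = 2), and the log2 fold change (log2FC) of the edgeR fit was -1.38 with a standard error (SE) of 0.26. The mimic libraries differed from each other by 1.80-fold and the controls by 1.29-fold. With any 1 library left out the log2 fold change lay between -1.86 and -1.01.

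Lgr4, the broadly expressed relative of Lgr5 with the same ligands, lies on chromosome 2 from 109917647 to 110014257. It had 223 and 213 normalized CPM in control libraries against 237 and 236 in mimic libraries. The mimic libraries were slightly above the controls, with a log2FC of 0.12 (SE 0.09). Set against each other within a library, Lgr5 had 2.06 and 1.72 times the TPM of Lgr4 in the controls. With the mimic the ratio was 0.45 and 0.82, so the order of the receptors was the reverse in both mimic libraries. Here and below, ratios with Lgr5 and its rank and share carry the difference it was picked for. Nothing further is read from them. Lgr6, the third relative, had 0 counts in every library.

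Rnf43 and Znrf3 encode the membrane ligases that take Frizzled off the cell surface. Rnf43, on chromosome 11 from 87662722 to 87735539, had 136 and 132 normalized CPM in control libraries against 103 and 116 in mimic libraries. Its mimic libraries were below both controls, with a log2FC of -0.29 (SE 0.10). Znrf3, on chromosome 11 from 5276324 to 5444847, had 49.0 and 47.3 normalized CPM in control libraries against 53.5 and 51.9 in mimic libraries. Its mimic libraries were above both controls, with a log2FC of 0.13 (SE 0.10). The partners lay on opposite sides of the controls, Znrf3 by a factor of only 1.06. Over all genes tested, 29.5% lay below both controls and 28.9% above, so nothing is read from these positions. Rnf43 had 4.27 and 4.47 times the TPM of Znrf3 in the controls, against 2.97 and 3.50 times in mimic libraries.

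Axin2 encodes a scaffold of the complex that degrades β-catenin and is a standard readout of Wnt activity. It lies on chromosome 11 from 108920349 to 108950783. It had 161 and 125 normalized CPM in control libraries against 138 and 158 in mimic libraries. The groups overlapped, and the log2FC of 0.05 (SE 0.14) was smaller than its error. Its sign depended on the libraries, since it was -0.12 without control replicate 2 and 0.23 without control replicate 1. The ratio of Axin2 to Lgr5 in TPM was 0.56 and 0.58 in the controls, against 2.03 and 1.26 in mimic libraries.

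Ascl2, the transcription factor that maintains stem cell identity downstream of Wnt, was scarce. It lies on chromosome 7 from 142966829 to 142969264 and had 132 and 150 counts in control libraries against 99 and 96 in mimic libraries. These were 3.44 and 4.84 normalized CPM in control libraries against 3.16 and 2.70 in mimic libraries. The mimic libraries were just below the lower control, by a factor of 1.09. The log2FC was -0.49 (SE 0.25), and with 1 library left out it ran from -0.73 to -0.23. Lgr5 had 42.6 and 23.8 times the TPM of Ascl2 in the controls, against 10.8 and 23.3 times in mimic libraries, where replicate 4 lay next to control replicate 2.

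Olfm4, a secreted glycoprotein that marks crypt base stem cells in SI and is also under Notch control, had the highest mean level of the set, 210 TPM over the 4 libraries. It lies on chromosome 14 from 79984081 to 80023139. It had 570 and 227 normalized CPM in control libraries against 400 and 531 in mimic libraries. The 2 controls differed by 2.51-fold and enclosed both mimic libraries. The log2FC was 0.22 (SE 0.36). It was 1.03 without control replicate 1 and -0.29 without control replicate 2, so neither a rise nor a fall can be read from these libraries. Within a library, Olfm4 had 2.29 and 1.23 times the TPM of Lgr5 in the controls, against 7.11 and 5.0 times in mimic libraries.

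The controls differed in other cell type genes as well. The 10 Paneth cell markers summed to 2341 TPM in control replicate 1 and 1216 TPM in control replicate 2, against 1253 and 1572 TPM with the mimic. None of the 8 that were tested passed the adjusted p, and Mptx2 and Pla2g2a had 0 to 4 counts per library. The median log2FC of the 8 was -0.64. Ang4 came closest to passing (log2FC -1.03, SE 0.22, adjusted p = 0.0512, edgeR), while Itln1 and Mptx1 had values above 0. The 10 enterocyte markers summed to 2888 and 3968 TPM in the controls, against 2321 and 2337 TPM with the mimic. Without Anpep the other 9 summed to 2233 and 3520 TPM, against 2218 and 2174 TPM, and Sis, Lct and Krt20 had fitted log2FC values above 0. Their part in the Olfm4 and Lgr5 values was not tested.

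Smoc2, a matricellular protein gene and stem cell mark on chromosome 17 from 14279506 to 14404790, had 316 and 253 normalized CPM in the controls. With the mimic it had 384 and 412. Both mimic libraries were above both controls, by at least 1.22-fold, and the means were 285 ± 44.6 and 398 ± 19.1 normalized CPM (SD, n = 2). The log2FC was 0.48 (SE 0.13), in the direction opposite to that of Lgr5. Leaving out 1 library gave 0.34 to 0.65. The ratio of Smoc2 to Lgr5 in TPM was 1.39 and 1.38 in the controls, against 6.89 and 4.06 in mimic libraries. Smoc2 is also made by fibroblasts, and the 11 mesenchymal markers summed to 0.53 to 0.72 TPM over the libraries. Which cells made Smoc2 was not tested.

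Tnfrsf19, also called Troy, is a receptor of the TNF family found on crypt stem cells, and it lies on chromosome 14 from 60963875 to 61046490. It was almost absent, with 35 and 9 counts in control libraries against 8 and 21 in mimic libraries, or 0.08 to 0.27 TPM. The groups overlapped, and the log2FC of -0.54 (SE 0.62) was smaller than its error. It was 0.56 without control replicate 1. The gene with the 3 seed matches was thus the least abundant of the set, and its difference was poorly measured at this depth.

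**Figure D2:**
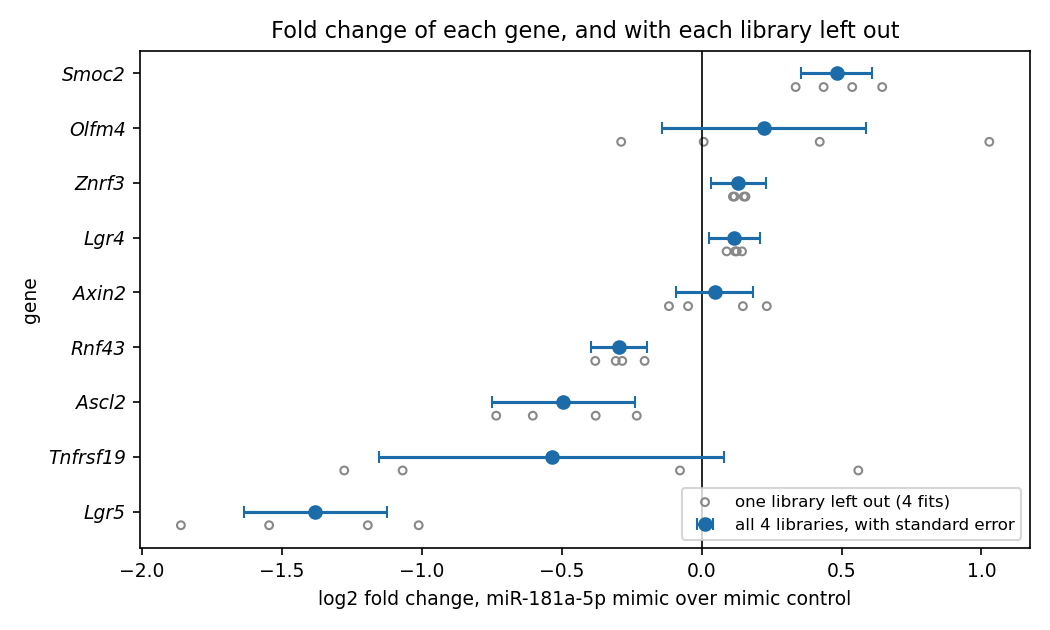
Log2 fold change of each gene between miR-181a-5p mimic and mimic control libraries, with the standard error of the edgeR fit as bars, and open circles for the 4 fits that each leave out 1 library. Lgr5 stays between -1.86 and -1.01, Smoc2 between 0.34 and 0.65, while Olfm4, Axin2 and Tnfrsf19 have circles on both sides of 0.

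By group position, 3 genes (Lgr5, Rnf43 and Ascl2) had mimic libraries below both controls, 3 (Smoc2, Lgr4 and Znrf3) had them above, and 3 (Olfm4, Axin2 and Tnfrsf19) overlapped. Over all genes tested, 29.5% had mimic libraries below both controls and 28.9% above, so such positions were common. The counts of the set were near these shares, and nothing is read from them. The genes differed in reproducibility too. The pooled within-group SD on the log2 scale was 0.03 for Lgr4 and for Znrf3, 0.46 for Lgr5 and 0.69 for Olfm4, beside a median of 0.12 over the 13387 tested genes with a mean of at least 1 TPM.

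**Figure D3:**
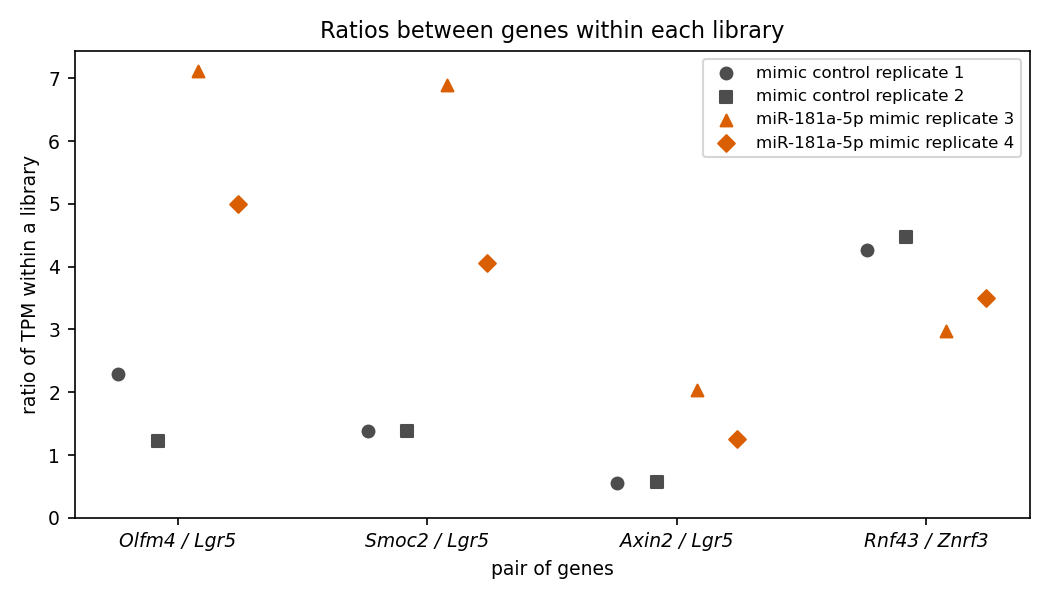
Ratio of the TPM of the first gene to that of the second within each of the 4 libraries, with grey symbols for the mimic control and orange for the miR-181a-5p mimic. The 3 plotted ratios over Lgr5 are higher in both mimic libraries than in both controls, and the ratio of Rnf43 to Znrf3 is lower in both. Lgr5 was picked for being lower with the mimic, so ratios over it carry that difference and are no separate result.

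Per transcript length, the order of the mean levels over all libraries was Olfm4 (210 TPM), Smoc2 (173), Lgr5 (72.0), Axin2 (60.1), Lgr4 (58.9), Rnf43 (42.6), Znrf3 (11.3), Ascl2 (2.85) and Tnfrsf19 (0.17). In the controls the ranges of Olfm4 and Smoc2 overlapped, as did those of Axin2 and Lgr4, while each of the other neighbours was apart. Lgr5 held rank 3 among the 9 genes in both controls, rank 6 in mimic replicate 3 and rank 5 in mimic replicate 4. It made up 16.0% and 18.4% of the summed TPM of the set in the controls, against 4.74% and 7.34% in mimic libraries. The sum itself was 716 and 502 TPM in control libraries against 567 and 736 in mimic libraries, and its order over libraries was that of Olfm4, not of Lgr5.

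The deposited counts and TPM together give an estimate of the mean transcript length of a gene, weighted by the abundance of its transcripts. The choice of genes did not use this value. It was scaled on annotated lengths of the release used here, which may differ from that of the authors. Lgr5 has 8 transcripts of 560 to 4793 bases in the annotation used here. Its estimate was 4308 and 4193 bases in the controls and 4512 and 4399 bases with the mimic. In every library it was nearer to the longest form than to the shortest. The difference of 4.82% compares with a median size of 1.92% over 6725 genes with several transcripts and at least 10 TPM in each library. For Smoc2 the difference was 4.04%, for Axin2 4.06% and for Lgr4 -1.15%. Non-overlapping values were again frequent, at 42.1% of those genes.

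RefSeq promoter windows of 300 bases (250 before to 50 after the start, GRCm38.p6) were at hand for 6 of the genes, as 8 windows, and not for Lgr5, Smoc2 or Znrf3. Core letters bound by TCF factors (CTTTGAT, with its variant CTTTGAA, another form CTTTGTA or the last form CTTTGTT, on either strand) were in 1 window of 8, an alternative start of Tnfrsf19 at chr14:61038172-61038200, against 16.9% of all 32851 windows. It is printed as the only match of the set, with the letters, here on the opposite strand, in capitals.
Tnfrsf19: ctgaatgggggATCAAAGtgacaaactag

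The wider pathway was read from lists of Wnt pathway, crypt stem cell and Notch genes that hold 135 genes besides the 9. Of the 99 tested, 5 rose (Fzd3, Clu, Bmi1, Tmed5 and Ephb2) and 1 fell (Aqp4) when the quasi-likelihood p of edgeR, adjusted over all 17155 genes, was held to 0.05. In that test 1.28% of all genes rose and 2.29% fell. The median log2 fold change of the 99 was 0.08, beside -0.01 for all genes tested. These lists were chosen with earlier results of these data known, and nothing is read from the shares.

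Ligands and R-spondins were close to absent. Of 19 Wnt ligands, 4 were tested and none passed, and their summed level was 2.60 to 3.41 TPM. Wnt3, the ligand made by Paneth cells, had the highest level, at 1.92 and 1.16 TPM in control libraries against 1.83 and 2.34 in mimic libraries. Rspo1, Rspo2 and Rspo3 had 0 counts in all libraries. Rspo4 had 0.88 and 0.19 TPM in control libraries against 0.03 and 0.19 in mimic libraries, and it did not pass (adjusted p = 0.157, edgeR). Among 4 secretion genes Tmed5, a cargo receptor of the early secretory pathway, rose from 12.0 and 15.2 TPM to 17.1 and 19.8 TPM, a log2FC of 0.58 (SE 0.12, adjusted p = 0.0483, edgeR). Tmed5 itself holds a 7mer-m8 match in its 3′ UTR, in exon 4 of 4 on the minus strand, shown because its gene was higher with the mimic. Aqp4, the pathway gene that fell, holds 1 8mer match in its 3′ UTR. Of the genes with an 8mer match that did not pass, Wls lay above 0, with a log2FC of 0.13. The others lay below 0, namely Vdr (-0.49), Btrc (-0.45), Notch2 (-0.40), Soat1 (-0.27), Phlda1 (-0.17), Prox1 (-0.12) and Amer1 (-0.08). Among genes with only 7mer matches that did not pass, Cdk6 (-0.42), Tnks (-0.31), Bcl9 (-0.26) and Tcf7l2 (-0.23) lay below 0. The rest lay above 0, among them Jag1 (0.41). Whether the matches bear on these values was not tested. In all, 26.3% of the 99 held a 3′ UTR match, beside 23.4% of all genes. The call of Tmed5 was kept in 5 of 14 alternatives, with an adjusted p (edgeR) of 0.101 without control replicate 1, 0.0677 without mimic replicate 3 and 0.111 without mimic replicate 4. The match reads as follows, with the paired letters in capitals.
chr5:108121961-108121989: gctcttttataTGAATGTcaataaacaga

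Among 13 tested Wnt receptors, Fzd3 rose, from 0.19 and 0.08 TPM to 0.26 and 0.35 TPM, with a log2 fold change in counts of 1.59 (SE 0.30, adjusted p = 0.0388, edgeR), at a very low level. Its adjusted p was 0.0722 without mimic replicate 4 (edgeR). Fzd5, with the highest level of the list, had 62.7 and 56.1 TPM in control libraries against 61.2 and 63.3 in mimic libraries. Lrp6, its co-receptor, had a log2FC of -0.16 (SE 0.09), and Lrp5 of 0.34 (SE 0.10, adjusted p = 0.104, edgeR). Of 13 extracellular inhibitors 4 were tested and none passed, with Sfrp5 at 0.15 and 0.30 TPM in the controls and 0.61 and 1.47 in the mimic libraries (adjusted p = 0.0718, edgeR). None of 15 genes of the destruction complex and Dishevelled group passed, and none of the 12 tested β-catenin and TCF genes did. Ctnnb1, which encodes β-catenin, had a log2FC of -0.10 (SE 0.10), and Apc of 0.24 (SE 0.10).

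Of 14 other Wnt target genes tested, Ephb2 rose and no other passed. Ephb2, a receptor that positions cells along the crypt, went from 30.01 and 33.15 TPM to 43.6 and 47.1 TPM (log2FC 0.48, SE 0.10, adjusted p = 0.0483, edgeR). This call was kept in 5 of 14 alternatives, with an adjusted p (edgeR) of 0.0525 under RLE factors, 0.0947 without control replicate 1, 0.193 without mimic replicate 3 and 0.0838 without mimic replicate 4. Ccnd1, the cyclin D1 gene, was near the threshold, with 18.8 and 18.3 TPM in control libraries against 23.9 and 28.1 in mimic libraries (log2FC 0.46, SE 0.10, adjusted p = 0.0514, edgeR). Myc had a log2FC of 0.29 (SE 0.11) and Sox9 of 0.16 (SE 0.17). Notum, a secreted enzyme that inactivates Wnt ligands, had 0.35 and 0.43 TPM in control libraries against 0.11 and 0.24 in mimic libraries (adjusted p = 0.113, edgeR).

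Among 20 other crypt stem cell genes 1 fell, Aqp4, a water channel gene listed with Lgr5-positive cells. It went from 28.8 and 25.8 TPM to 12.1 and 15.2 TPM, a log2FC of -1.06 (SE 0.11, adjusted p = 0.00778, edgeR). Slc12a2, the most abundant of the list, had 212 and 189 TPM in control libraries against 238 and 264 in mimic libraries, and did not pass. Vdr (log2FC -0.49, adjusted p = 0.0732, edgeR) and Cdk6 (log2FC -0.42, adjusted p = 0.0784, edgeR) did not pass. Igfbp4 had 20.9 TPM in control replicate 1 and 4.19 to 7.46 TPM in the other libraries.

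Of 7 tested genes of reserve and regenerating stem cells, Bmi1 and Clu rose. Bmi1, a Polycomb protein gene, went from 22.6 and 24.6 TPM to 41.2 and 36.5 TPM (log2FC 0.84, SE 0.10, adjusted p = 0.011, edgeR). Clu, the clusterin gene, went from 1.24 and 1.0 TPM to 3.23 and 2.82 TPM (log2FC 1.47, SE 0.27, adjusted p = 0.034, edgeR), and its adjusted p was 0.102 without mimic replicate 3. Hopx, the most abundant of them, had a log2FC of 0.02 (SE 0.09). None of 10 tested Notch genes passed. Nrarp came closest (log2FC 0.60, SE 0.13, adjusted p = 0.0525, edgeR), and Notch2 had a log2FC of -0.40 (SE 0.11, adjusted p = 0.0898, edgeR). Hes1, a Notch target, had 68.3 and 56.6 TPM in control libraries against 63.9 and 90.5 in mimic libraries.

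**Figure D4:**
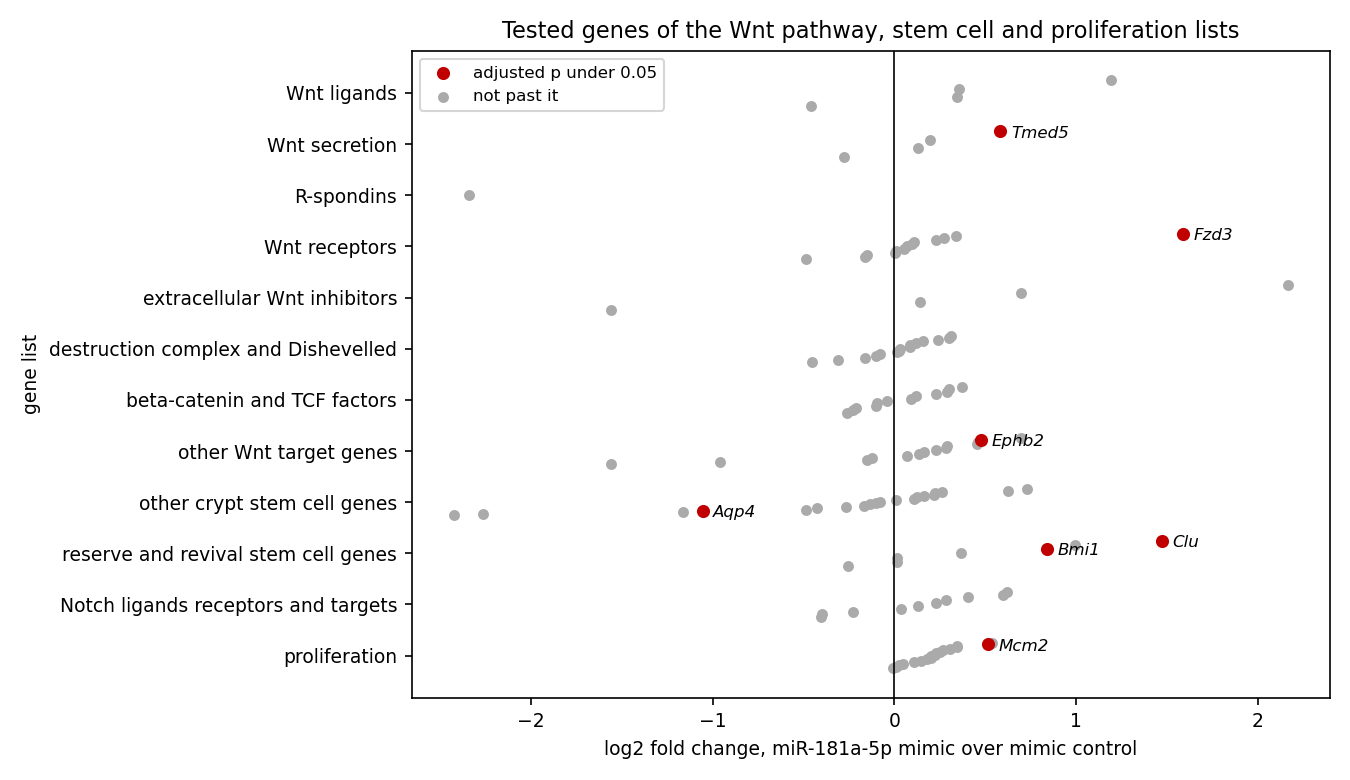
Log2 fold change of every tested gene in the Wnt pathway, stem cell, Notch and proliferation lists, red where the adjusted p (edgeR) was under 0.05 and grey elsewhere. A gene on 2 lists is drawn in each, and the red points are Tmed5, Fzd3, Ephb2, Aqp4, Clu, Bmi1 and Mcm2.

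Proliferation genes were read beside the Lgr5 values. Of 18 tested, Mcm2, a subunit of the replicative helicase, rose and none fell, beside 1.28% and 2.29% of all genes. A fitted log2FC above 0 was found for 17 of the 18, beside 48.6% of all genes, and the median was 0.21, beside -0.01. The list was chosen with earlier results of these data known, so nothing is read from these shares. Mcm2 went from 23.4 and 24.6 TPM to 34.8 and 35.7 TPM (log2FC 0.51, SE 0.10, adjusted p = 0.0369, edgeR), a call kept in 7 of 14 alternatives. Its adjusted p (edgeR) was 0.0544 without control replicate 1, 0.154 without mimic replicate 3 and 0.0517 without mimic replicate 4. Mki67 had 87.8 and 94.9 TPM in control libraries against 97.9 and 93.4 in mimic libraries, and Top2a had a log2FC of 0.01 (SE 0.10). Among differentiated cell markers 1 of 10 enterocyte genes passed, Anpep, a brush border peptidase (log2FC -2.14, adjusted p = 0.00812, edgeR), and 0 of 7 goblet cell genes did.

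The genes whose profile over the 4 libraries came nearest to that of Lgr5 were Rab34, Gal3st2b, Tbxas1, BC024139 and Fos. Nearness is the root mean square difference of mean-centred log2(normalized CPM + 0.5) among 13386 other genes, and it was 0.08 to 0.10 for these. The added 0.5 shrinks the differences of scarce genes, such as Rab34 with a fitted log2FC of -1.95. Fos, the most abundant, had 17.3 and 13.4 normalized CPM in control libraries against 4.57 and 7.05 in mimic libraries. The other 4 lay between 0.16 and 8.76 normalized CPM. The genes nearest to Olfm4 were Gm7334, Nrep, Rassf4, Pou2f3 and Triqk, at 0.05 to 0.13. Rassf4 had 61.1 and 27.0 normalized CPM in control libraries against 52.5 and 60.8 in mimic libraries, low in control replicate 2 as Olfm4 was. These are descriptions over 4 libraries, without a test.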

How the data were processed

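Per the labels and supplemental methods, single-end 100-cycle reads were cleaned with Trimmomatic, and the authors ran RSEM against GRCm38 transcripts. The annotation release is not given in the sources used here. The methods describe ribosomal RNA depletion and the labels poly(A) selection. The authors deposited expected counts per gene, without normalization, and TPM, scaled to 1 total in every library. Of the columns in each table, 3 matched no sample and were not used.

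Expected counts were rounded and tested with edgeR 4.0.16 (filterByExpr, TMM, glmQLFit with legacy = FALSE, glmQLFTest) in R 4.3.3, and p was adjusted by Benjamini-Hochberg over 17155 genes. Each standard error is the log2 fold change divided by the root of F. Calls need an adjusted p under 0.05 and, where stated, a fold change of at least 2, the study's thresholds. The fits were tested on simulated data. For 1 gene and 2 libraries a group, the smallest exact permutation p is 0.333. No library repeated another (chi-square per degree of freedom 33.8 and 18.3 within groups).

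The genes and lists were chosen with earlier results of these data known. Named genes are the 9, list genes past the adjusted p (at most 10 a list), up to 3 most abundant genes of a list, and the 5 nearest profiles. Lrp5, Apc, Ccnd1, Notum, Vdr, Cdk6, Igfbp4, Mki67, Krt20, Lct, Mptx2, Pla2g2a and Lgr6 were chosen after their values were seen. So were Jag1, Nrarp, Notch2, Ang4, Mptx1, Btrc, Phlda1, Prox1, Amer1, Tnks and Bcl9. Symbols matched 55141 genes. Alternatives were RLE factors, library totals, edgeR's exact test, DESeq2 1.42.0, 2 other filters, limma 3.58.1 on log2(TPM + 1) and log2(TPM + 0.1) (at least 1 TPM in 2 libraries, or no filter), each library left out, and the legacy test, which was added after the data were seen. Implied transcript lengths are counts over TPM, scaled by 385 genes with a single transcript. Plots used matplotlib 3.10.9.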

Additional observations from a re-analysis of the deposited data

How the results depend on the processing

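Fits with 1 library left out leave a lone library, which is assumed to vary like the other group. No paired analysis was possible because the groups share no replicate number. The log2 fold changes of Lgr5, Lgr4, Ascl2, Smoc2, Rnf43 and Znrf3 kept their sign in the 10 other fits and the 4 with 1 library left out. Olfm4 and Axin2 kept it in the 10, as Tnfrsf19 did in the 7 that could hold it (-0.53 to -0.08, the last with limma on log2(TPM + 1) without a filter), but none of these 3 genes did in every fit with 1 library left out. The filter of 10 counts in every library and the other 2 TPM fits left Tnfrsf19 out. In the 3 TPM fits Lgr4 was 0.19, 0.20 and 0.19, and Znrf3 was 0.18, 0.20 and 0.18 (pseudocounts 1 and 0.1, and 1 without a filter). Over all genes, the median log2 fold change shift against the main fit was 0.056, 0.059 and 0.059 in these 3 fits. Leaving out 1 library gave -1.86 to -1.01 for Lgr5, -0.73 to -0.23 for Ascl2, -0.29 to 1.03 for Olfm4, -0.38 to -0.20 for Rnf43 and -1.28 to 0.56 for Tnfrsf19.

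The counts over all genes (101 higher, 253 lower past both thresholds) were 200 and 530 with edgeR's exact test, 50 and 108 without a filter on low counts, and 220 and 392 by adjusted p alone. They were 30 and 41 with limma on log2(TPM + 1), 11 and 16 with log2(TPM + 0.1), and 2 and 0 without a filter on TPM. Leaving out 1 library gave 115 to 230 higher and 166 to 661 lower genes, the highest without control replicate 2. The 99 other pathway genes had 2 higher and 1 lower past both thresholds, beside 0.589% and 1.47% of all genes tested. The exact test gave 4 lower, the unfiltered counts gave 0 higher, the adjusted p alone gave 5 higher, and each TPM fit by limma gave 0 higher and 0 lower. Leaving out 1 library gave 1 to 4 higher and 0 to 5 lower.

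Aqp4 and Bmi1 passed the adjusted p in 11 of 14 alternatives (4.54e-12 to 0.314 and 2.44e-08 to 0.306), Clu in 9 of 14 (0.000202 to 0.314) and Fzd3 in 9 of 12 (0.000306 to 0.383). Ephb2 and Tmed5 passed in 5 of 14 each (0.00448 to 0.314 and 0.00201 to 0.38), and in 1 of the 4 fits with a library left out. The cause was not tested.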
